A study of Mus musculus with 2 samples.

Results

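The 10 circadian clock genes described here were Arntl, Clock, Per1, Per2, Per3, Cry1, Cry2, Nr1d1, Nr1d2 and Dbp, chosen by symbol from the 31053 genes of a single-cell RNA sequencing matrix of mouse small intestinal organoids. Organoids are epithelial cultures grown from crypts. The labels list a control and a melatonin-treated group, each made of cells pooled from 3 organoid lines on culture day 3 and read with a 3′ droplet protocol. Melatonin is a hormone released at night, and the study's title places it with prostaglandin E2 and the regulator YAP in epithelial regeneration. Strain, animal age, melatonin dose and hour of harvest are not given in the sources used here.

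The 2 samples held the same matrix: 3 of 3 files were identical. Each barcode ends in the suffix 1 or 2, called set 1 and set 2, and no label ties a suffix to a treatment. A ratio of set 2 over set 1 therefore has no direction with respect to melatonin, and control was not compared with melatonin. The sets are not replicates of a condition, so no test between sets or classes was made. Intervals are exact 95% Poisson or binomial intervals and cover counting error only.

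In the mammalian clock, the proteins of Arntl and Clock pair and switch on genes that carry an E-box. Among these genes are the Per and Cry repressors, which close the loop by blocking the pair, and Nr1d1 and Nr1d2, nuclear receptors that repress Arntl through ROR elements. Dbp is a transcription factor driven by the pair that acts on D-boxes. In the intestine the loop is known to run in epithelial cells and to time digestion, absorption and cell division.

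4 promoter stretches are shown because they hold an element of the loop, or, for the second Per1 start, a part of the cAMP response element through which Per1 can be induced. All come from RefSeq on GRCm38.p6 and run from 250 bases before to 50 after a start. Capitals mark the E-box CACGTG, the D-box TTATGTAA, the ROR element core TAGGTCA or TGACGT, each searched on both strands. The Per1 stretches are chr11:69098699-69098998 and chr11:69099902-69100201 on the plus strand, the Per3 stretch is chr4:151044616-151044915 on the minus strand and the Arntl stretch is chr7:113207261-113207560 on the plus strand.
Per1, upstream start: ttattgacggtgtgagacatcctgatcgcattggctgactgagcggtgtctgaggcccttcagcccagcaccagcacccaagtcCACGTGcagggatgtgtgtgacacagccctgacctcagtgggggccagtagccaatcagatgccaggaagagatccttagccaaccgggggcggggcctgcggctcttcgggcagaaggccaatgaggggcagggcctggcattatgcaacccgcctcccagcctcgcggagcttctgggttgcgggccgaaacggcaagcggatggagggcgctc
Per1, downstream start: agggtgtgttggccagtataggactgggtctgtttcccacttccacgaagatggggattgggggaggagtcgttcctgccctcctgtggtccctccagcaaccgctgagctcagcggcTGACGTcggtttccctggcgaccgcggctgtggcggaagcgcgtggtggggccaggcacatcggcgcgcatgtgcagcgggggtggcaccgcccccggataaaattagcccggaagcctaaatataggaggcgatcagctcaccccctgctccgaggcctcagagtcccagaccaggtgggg
Per3: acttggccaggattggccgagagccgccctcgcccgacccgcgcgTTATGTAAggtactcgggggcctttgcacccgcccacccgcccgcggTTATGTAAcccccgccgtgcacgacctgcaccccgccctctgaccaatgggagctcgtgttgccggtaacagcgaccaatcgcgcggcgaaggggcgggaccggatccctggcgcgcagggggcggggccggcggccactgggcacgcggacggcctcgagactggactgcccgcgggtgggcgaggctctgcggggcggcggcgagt
Arntl: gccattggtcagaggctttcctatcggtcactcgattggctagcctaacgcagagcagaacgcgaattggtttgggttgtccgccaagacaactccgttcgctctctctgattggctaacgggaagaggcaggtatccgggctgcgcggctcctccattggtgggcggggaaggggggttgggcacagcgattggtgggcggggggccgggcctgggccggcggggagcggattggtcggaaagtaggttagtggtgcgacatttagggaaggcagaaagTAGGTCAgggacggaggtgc

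The table held 13 promoters for 9 of the 10 genes, without Per2. An E-box was found for 2 genes, Per1 and Cry1 (chr10:85185005-85185304, minus strand), of the 9, against 8.09% of all 27025 genes in the table (7.15% of 32851 promoters). The D-box was found for 1 gene, Per3, where it occurs at positions 46 and 93 from the 5′ end, against 1.11% of genes (0.938% of promoters). The ROR core was found for Arntl alone among the 9 (2.97% of genes and 2.61% of promoters) and TGACGT for Per1 alone (8.37% of genes and 7.51% of promoters). A match describes letters in a window and was not tied to any level below.

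Barcodes with 500 or more genes, 1000 or more UMIs and no more than 20% of UMIs from mitochondrial genes were kept, which left 4066 of 21806: 2300 in set 1 and 1766 in set 2. They held 61628537 and 51111519 UMIs, with medians of 29872 and 28759 per cell. No barcode sequence was shared by the sets among kept cells, and 29 were among all barcodes. Cells were put into classes by summed marker genes. Cells with secretory hormone markers (Chga, Chgb, Neurod1 and others) are called enteroendocrine-like (211 in set 1 and 230 in set 2), and absorptive cells enterocyte-like (123 and 176). Crypt-like cells met a stem marker gate and were divided into dividing (1210 and 619), S-phase (86 and 183) and low-cycling cells (116 and 214). The low-cycling class was led by Nupr1, Cyr61, Edn1 and heat shock genes rather than by stem markers. The tuft cell marker Rgs13 was also among its leading genes. In set 1 this class held tuft cell markers at a summed 53.8 CPM, against 3.22 in set 2. Goblet-like (37 and 18) and revival-like cells (20 and 29) were too few for a comparison, and the goblet-like cells also carried Paneth genes. Of 5 immune markers, Ptprc was at 0 in both sets and the summed level was 4.45 and 4.23 CPM. The mesenchymal list was at 1064 and 728 CPM in enteroendocrine-like cells, where Vim was a leading gene, and at 2.19 CPM or less in the other gated classes; Col3a1 was at 0.

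All 10 genes were detected in both sets. Levels are UMIs of the gene per 1000000 UMIs of the summed cells (CPM), a 3′ count that is not divided by gene length. Clock, the DNA-binding partner of Arntl, was the highest of the 10 in both sets, with 42.3 CPM (40.7 to 43.9) and 42.8 CPM (41.0 to 44.6) in sets 1 and 2. Arntl, the other partner, stood at 7.74 CPM (7.06 to 8.47) and 9.10 CPM (8.29 to 9.96). The repressors were lower than Clock: Cry1 had 13.2 and 10.53 CPM, Cry2 6.96 and 6.87 CPM. Per1 had 7.61 CPM (6.94 to 8.33) and 11.7 CPM (10.8 to 12.7). Per2 had 6.12 and 5.50 CPM and Per3 6.04 and 5.13 CPM. Nr1d1 had 13.3 CPM (12.4 to 14.2) and 24.9 CPM (23.6 to 26.3), and Nr1d2 13.0 and 15.4 CPM. Dbp was the lowest of the 10 in set 1, at 5.53 CPM, and had 6.28 CPM in set 2. In set 1 the intervals of Cry1, Nr1d1 and Nr1d2 overlapped each other, as did those of Per2, Per3 and Dbp. In set 2 Nr1d1 was second to Clock, and its interval met that of no other member.

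**Figure D1:**
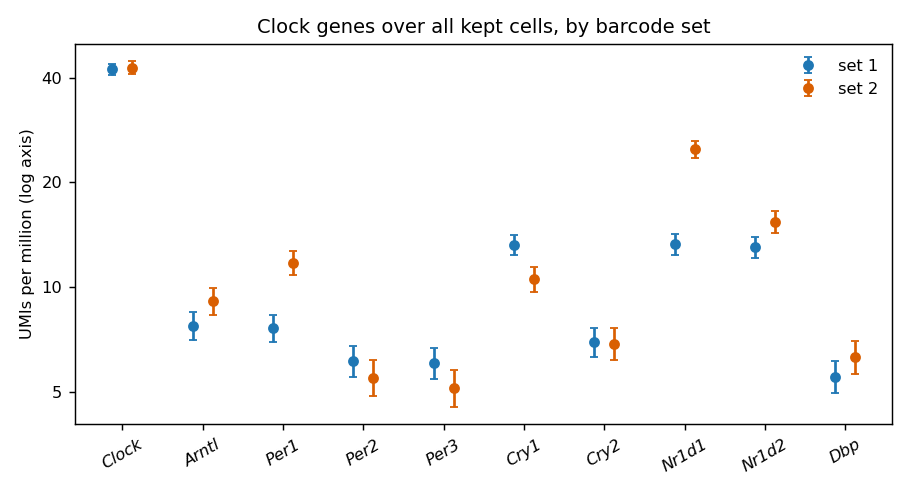
Level of each clock gene over all kept cells in CPM (log axis), with points for set 1 (2300 cells) and set 2 (1766 cells) and bars for 95% Poisson intervals, which cover counting error only. Clock lies near 42 in both sets, and Nr1d1 (13.3 and 24.9) and Per1 (7.61 and 11.7) show the widest gaps between the sets.

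Between the barcode sets, 1 of the 10 genes, Nr1d1, passed the limit of 1.5-fold on the CPM + 1 scale, and it was higher in set 2. Of all 15474 genes with at least 10 UMIs, 2.46% were that much higher in set 2 and 1.4% that much lower. The ratio of Nr1d1 was 1.81-fold (log2 0.86). With a pseudocount of 10 CPM it was 0.58 on the log2 scale and no gene passed. Per1 lay just short of the limit at 1.48-fold (log2 0.57), and passed it with a pseudocount of 0.1 CPM (0.62) or with no mitochondrial limit (0.71). The other 8 genes had log2 ratios between -0.30 (Cry1) and 0.23 (Nr1d2), and the median of the 10 was 0.09 against 0.03 for all genes tested. Among these 8, the activators were at 0.02 (Clock) and 0.21 (Arntl) and the output gene Dbp at 0.16. Without the 3 cells highest in Nr1d1 of each set its log2 ratio was 0.81.

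The sets differed in their make-up, and the ratio of Nr1d1 was smaller than 1.81-fold within each of the 5 large classes. It was 1.33-fold in enterocyte-like, 1.38-fold in dividing, 1.73-fold in S-phase and 1.47-fold in low-cycling cells, and 0.969 in enteroendocrine-like cells. With set 2 given the class make-up of set 1, the Nr1d1 ratio was 1.35-fold, below the limit. For Per1 the ratio was above its overall 1.48-fold in enterocyte-like cells (1.56-fold) and below it in dividing (1.36-fold), low-cycling (1.27-fold) and enteroendocrine-like cells (1.15-fold), and it was 1.31-fold at the class make-up of set 1. The S-phase ratio of Per1, 2.33-fold, rests on 10 UMIs in set 1 and 63 in set 2.

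Among related genes, Usp2, a deubiquitinase of clock proteins, was the only 1 of 10 protein modifiers past 1.5-fold, with 11.96 CPM in set 1 and 7.49 CPM in set 2. None of 11 further clock genes and none of 8 known outputs passed that limit. Of 6 tested genes that share inducers with Per1 (glucocorticoid or cAMP signals), 2 were past it, both higher in set 2, against 2.46% of all genes. Nr4a1, an immediate early nuclear receptor, had 20.5 and 42.2 CPM, and Fkbp5, a glucocorticoid-induced chaperone, 7.14 and 12.7 CPM.

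Enteroendocrine-like cells held more clock transcripts in CPM than crypt-like cells. Per1, Cry2, Per3, Nr1d2, Per2 and Clock, 6 of the 10, were at least 2-fold higher in both sets, and none was 2-fold lower. That share has a high background: 25.6% of the 9847 genes tested were higher by this rule and 8.92% lower. Cry2 and Per3, which are among the 6, passed the filter of 5 CPM only through the enteroendocrine-like class. The count therefore says nothing of the 10 genes as a whole. The median log2 ratio of the 10 was 1.11, and that of all genes 0.41.

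Per1, the repressor that responds fastest to outside signals, had 102 UMIs in enteroendocrine-like cells of set 1 and 139 in those of set 2, which gave 33.3 CPM (27.1 to 40.4) and 38.6 CPM (32.4 to 45.5). In crypt-like cells it was at 5.12 CPM (4.51 to 5.79) and 7.86 CPM (6.96 to 8.85). The intervals of the classes lay far apart in both sets, with log2 ratios of 2.49 and 2.16. Enterocyte-like cells had 9.29 and 15.1 CPM of Per1, so the enteroendocrine-like class was the highest of the 5 large classes in each set. S-phase cells had 4.16 and 11.03 CPM, dividing cells 5.18 and 7.43 CPM and low-cycling cells 4.85 and 6.44 CPM. In each set the intervals of these 3 crypt-like classes overlapped.

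Cry2, the partner of the Per proteins in repression, had the largest ratio in each set. It stood at 33.6 CPM (27.4 to 40.7) and 24.4 CPM (19.6 to 30.1) in enteroendocrine-like cells and at 4.16 CPM (3.61 to 4.77) and 3.99 CPM (3.35 to 4.71) in crypt-like cells. The log2 ratios were 2.74 and 2.35. Enterocyte-like cells had 7.48 and 7.38 CPM of Cry2, and the 3 crypt-like classes between 2.50 and 4.65 CPM. Its paralog Cry1 was less uneven: 25.4 and 21.9 CPM in enteroendocrine-like against 12.2 and 10.0 CPM in crypt-like cells. With folds of 1.995 and 2.08 Cry1 lay just outside the rule, and Clock just inside it.

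Per3 had 18.9 and 15.3 CPM in enteroendocrine-like cells and 4.79 and 3.67 CPM in crypt-like cells, log2 ratios of 1.78 and 1.80. Per2 had 12.7 and 13.0 CPM against 5.73 and 4.42 CPM, log2 ratios of 1.03 and 1.37. Nr1d2 had 33.9 and 32.5 CPM against 10.7 and 12.3 CPM, log2 ratios of 1.57 and 1.33. For these 3 genes the class intervals did not overlap in either set, and the share of all genes with intervals apart in this way is not given here. Clock had 80.2 CPM (70.5 to 90.9) and 77.7 CPM (68.8 to 87.3) in enteroendocrine-like cells, against 38.5 and 37.9 CPM in crypt-like cells and 46.4 and 50.02 CPM in enterocyte-like cells.

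Arntl had the smallest ratio of the 10 in each set. It stood at 10.1 CPM (6.87 to 14.3) and 11.4 CPM (8.16 to 15.4) in enteroendocrine-like cells against 7.47 and 9.29 CPM in crypt-like cells, and the intervals overlapped in both sets. Nr1d1, at 26.1 and 25.2 CPM in enteroendocrine-like cells, was 2.59-fold higher than in crypt-like cells in set 1 (9.46 CPM) and 1.45-fold higher in set 2 (17.1 CPM). Dbp had 9.78 and 6.93 CPM against 4.71 and 4.45 CPM, and did not reach 2-fold in either set. Per3, Cry2 and Dbp passed the filter of 5 CPM only through the enteroendocrine-like class, so their passing was tied to a higher level there.

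**Figure D2:**
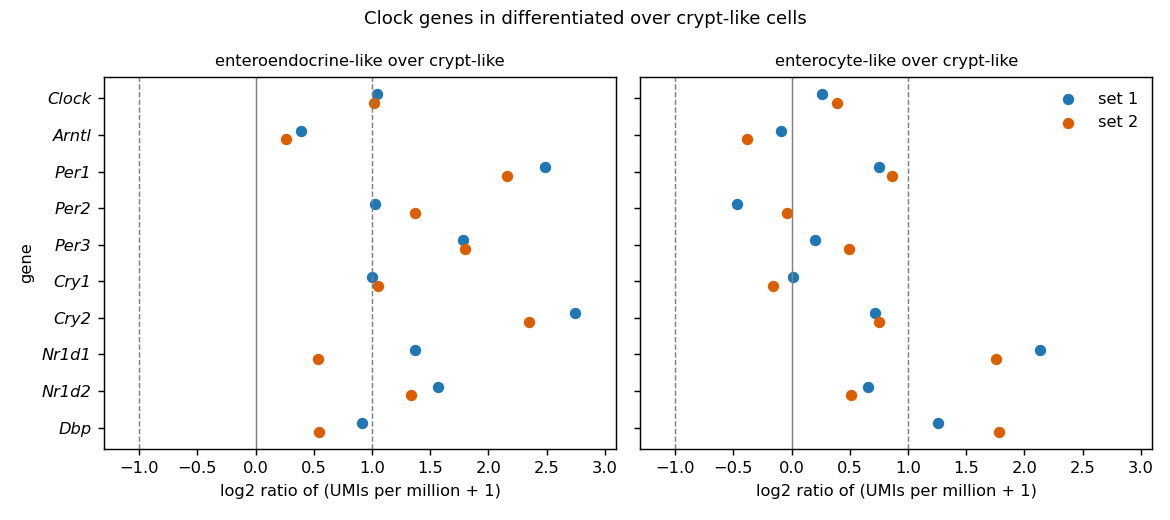
Log2 ratio of CPM + 1 in enteroendocrine-like cells (left) and enterocyte-like cells (right) over crypt-like cells for each clock gene, with 1 point per barcode set and dashed lines at 2-fold. On the left 6 genes lie beyond 2-fold in both sets, Cry2 and Per1 farthest; on the right only Nr1d1 and Dbp do.

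The size of these ratios depends on what a cell's total is taken to be. Enteroendocrine-like cells had medians of 13891 and 14258.5 UMIs, while dividing cells had 37363 and 38956. Counted as UMIs per cell, Clock was lower in enteroendocrine-like cells (1.17 and 1.22) than in crypt-like cells (1.34 and 1.30). Per1 was still higher per cell, at 0.483 and 0.604 against 0.178 and 0.270, and so was Cry2, at 0.488 and 0.383 against 0.145 and 0.137. Nr1d2 had 0.493 and 0.509 per cell against 0.375 and 0.421, and Per2 0.185 and 0.204 against 0.1997 and 0.152.

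With TMM scaling, which sets most genes near no change, the median of all genes moved from 0.41 to -0.23. Then 12.9% of 9763 genes were called higher and 21.4% lower, and 3 of the 10 clock genes stayed past 2-fold in both sets: Cry2 (log2 2.11 and 1.82), Per1 (1.85 and 1.60) and Per3 (1.15 and 1.28). Under that scaling Arntl turned to -0.24 and -0.28, Nr1d1 in set 2 to -0.03, and the others kept a positive sign. In cells of 8000 to 20000 UMIs, 156 and 152 enteroendocrine-like and 117 and 117 crypt-like cells, 4 genes stayed past 2-fold and Clock and Per2 did not. There Per1 stood at 32.7 and 49.95 CPM against 9.21 and 13.3 CPM, and Cry2 at 38.6 and 25.7 CPM against 6.33 and 6.08 CPM. In cells of at least 20000 UMIs, only 26 and 46 enteroendocrine-like against 1236 and 873 crypt-like cells, Per1, Per3 and Cry2 stayed past 2-fold, and Clock, Per2 and Nr1d2 did not. There Clock stood at 50.2 and 49.2 CPM against 38.3 and 37.2 CPM, Per1 at 27.1 and 16.4 CPM against 4.95 and 7.50 CPM, and Cry2 at 17.6 and 20.3 CPM against 4.11 and 3.89 CPM. Nr1d2 had 25.8 and 17.2 CPM against 10.56 and 11.8 CPM. The share of all genes past 2-fold within either depth range is not given here, so these counts have no background beside them.

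With each cell thinned to 2000 UMIs, a UMI of Per1 was seen in 7.17% and 8.32% of enteroendocrine-like cells and in 1.12% and 1.71% of crypt-like cells. A UMI of Cry2 was seen in 7.50% and 4.96% against 0.830% and 0.820%. At this depth 4 and 6 enteroendocrine-like and 14 and 2 crypt-like cells were left out as too shallow. Unthinned, the Per1 shares were 32.7% and 38.7% against 16.0% and 22.2%. No class should lack a clock gene, so no share of free clock RNA could be read. Chga, a hormone granule gene, had a UMI in 1.35% and 1.42% of thinned crypt-like cells against 77.8% and 79.5% of enteroendocrine-like cells. It is a marker of the enteroendocrine gate, which itself moves these shares apart, so it is no neutral background for Per1 or Cry2.

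Within the enteroendocrine-like class, the 10 members were compared between cells high and low in Tph1, the enzyme of serotonin synthesis. The division at 10 UMIs of Tph1 per 10000 was chosen after the data were seen. Per1 stood at 42.0 CPM (31.3 to 55.2) and 59.8 CPM (48.5 to 72.9) in the 83 and 117 cells above it, and at 27.5 CPM (20.5 to 36.2) and 20.9 CPM (15.0 to 28.3) in the 128 and 113 cells below. Nr1d1 had 32.1 and 39.7 CPM above and 22.1 and 13.2 CPM below, and Nr1d2 had 44.5 and 47.6 CPM above and 27.0 and 19.8 CPM below. For these 3 genes, named after their values were seen, the intervals overlapped in set 1 and were apart in set 2. For the other 7 members they overlapped in both sets. Clock had 92.2 and 85.4 CPM above and 72.3 and 71.2 CPM below, and Cry2 had 41.2 and 26.2 CPM above and 28.6 and 22.9 CPM below. The share of all genes that differed by this division was not computed. Median depths of the Tph1-high and Tph1-low cells were 14359 and 13547 UMIs in set 1 and 13915 and 16574 in set 2.

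The wider pathway behaved unevenly in enteroendocrine-like cells. Of 11 further clock genes 8 were tested, 5 were called higher and none lower, against 25.6% and 8.92% of all genes. Rora, Arntl2 and Npas2 passed the filter only through the enteroendocrine-like class, so these counts say nothing of the list as a whole. Rora, an activator that competes with the Nr1d receptors, had 17.3 and 20.2 CPM against 0.142 and 0.201 CPM in crypt-like cells, where it rested on 7 UMIs in each set. Arntl2, a paralog of Arntl, had 24.8 and 13.9 CPM against 3.59 and 4.24 CPM. Tef, a relative of Dbp, had 33.3 and 34.4 CPM against 10.9 and 10.2 CPM. Ciart, a repressor of the Arntl and Clock pair, had 17.9 and 13.9 CPM against 5.81 and 4.33 CPM. Bhlhe40, a further repressor, was called with 113 and 111 CPM against 52.5 and 46.7 CPM. Npas2, a paralog of Clock, had log2 ratios of 1.68 and 0.92 and was not called.

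Of 9 tested protein modifiers 2 were called higher, a share no larger than the 25.6% of all genes: the ubiquitin ligase subunits Btrc (14.0 and 17.8 CPM against 6.40 and 6.14) and Fbxw11 (41.1 and 38.0 CPM against 15.6 and 18.0). Of 7 tested outputs 1 was called higher, a smaller share than the 25.6% of all genes, and 2 lower, where 8.92% of all genes were. Cdkn1a, a brake on division, had 371 and 339 CPM against 61.3 and 82.6 CPM. Ccnd1, which drives entry into division, had 8.15 and 4.16 CPM against 44.1 and 39.5 CPM, and Tipin, a replication fork protein, 15.0 and 15.0 CPM against 51.9 and 58.3 CPM. Of 6 tested genes inducible like Per1, 1 was called: Nr4a1 with 124 and 196 CPM against 8.37 and 22.8 CPM. The glucocorticoid target Tsc22d3 had log2 ratios of -0.07 and -0.03.

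Enterocyte-like cells had another pattern. Nr1d1 and Dbp were at least 2-fold higher than in crypt-like cells in both sets, 2 of the 8 members tested, and none was 2-fold lower. Of all 8846 genes tested, 9.39% were called higher and 10.4% lower. Per2 and Per3 did not pass the filter on low levels.

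Nr1d1 had 174 and 367 UMIs in the enterocyte-like cells of the sets, which gave 44.9 CPM (38.5 to 52.1) and 60.2 CPM (54.2 to 66.7), against 9.46 CPM (8.62 to 10.4) and 17.1 CPM (15.7 to 18.5) in crypt-like cells. The log2 ratios were 2.13 and 1.76. Enterocyte-like cells had medians of 33274 and 34187.5 UMIs, and the gap was also seen per cell, with 1.42 and 2.08 UMIs of Nr1d1 against 0.330 and 0.587. At 2000 UMIs a UMI of Nr1d1 was seen in 8.38% and 11.4% of enterocyte-like, 5.10% and 4.75% of enteroendocrine-like and 1.95% and 3.56% of crypt-like cells; unthinned, the shares were 58.5% and 75.0%, 24.6% and 23.0%, and 25.9% and 35.8%.

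Dbp had 12.6 CPM (9.35 to 16.7) and 17.7 CPM (14.5 to 21.4) in enterocyte-like cells against 4.71 CPM (4.12 to 5.36) and 4.45 CPM (3.77 to 5.20) in crypt-like cells, with log2 ratios of 1.26 and 1.78. It passed the filter through the enterocyte-like class. Without the 3 cells highest in Dbp of each set it was no longer called. Clock and Arntl were close to their crypt-like levels, with log2 ratios of 0.27 and 0.39 for Clock and -0.09 and -0.38 for Arntl. Per1 (0.75 and 0.86), Cry2 (0.72 and 0.75) and Nr1d2 (0.66 and 0.51) lay between no change and 2-fold, and Cry1 was at 0.01 and -0.16.

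Mitochondrial share moved with this class. Its median was 13.4% and 14.1% in enterocyte-like cells, against 9.14% and 8.95% in dividing cells. With a limit of 10% only 26 and 26 enterocyte-like cells remained and neither gene was called; the mean log2 ratio was 0.99 for both Nr1d1 and Dbp. The part of mitochondrial share in the result was not tested.

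Of 8 known outputs 2 were called higher in enterocyte-like cells and 3 lower, where 9.39% and 10.4% of all genes were. Alas1, which starts heme synthesis, had 202 and 249 CPM against 35.6 and 35.2 CPM, and Por, which feeds electrons to cytochrome P450 enzymes, 170 and 227 CPM against 62.6 and 79.7 CPM. Ccnd1, Timeless and Tipin were lower, and Timeless passed the filter only through its crypt-like level. Usp2 was the 1 of 9 modifiers called, with 28.9 and 28.7 CPM against 10.9 and 4.67 CPM. None of the 4 tested further clock genes and none of the 5 tested companions of Per1 was called.

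**Figure D3:**
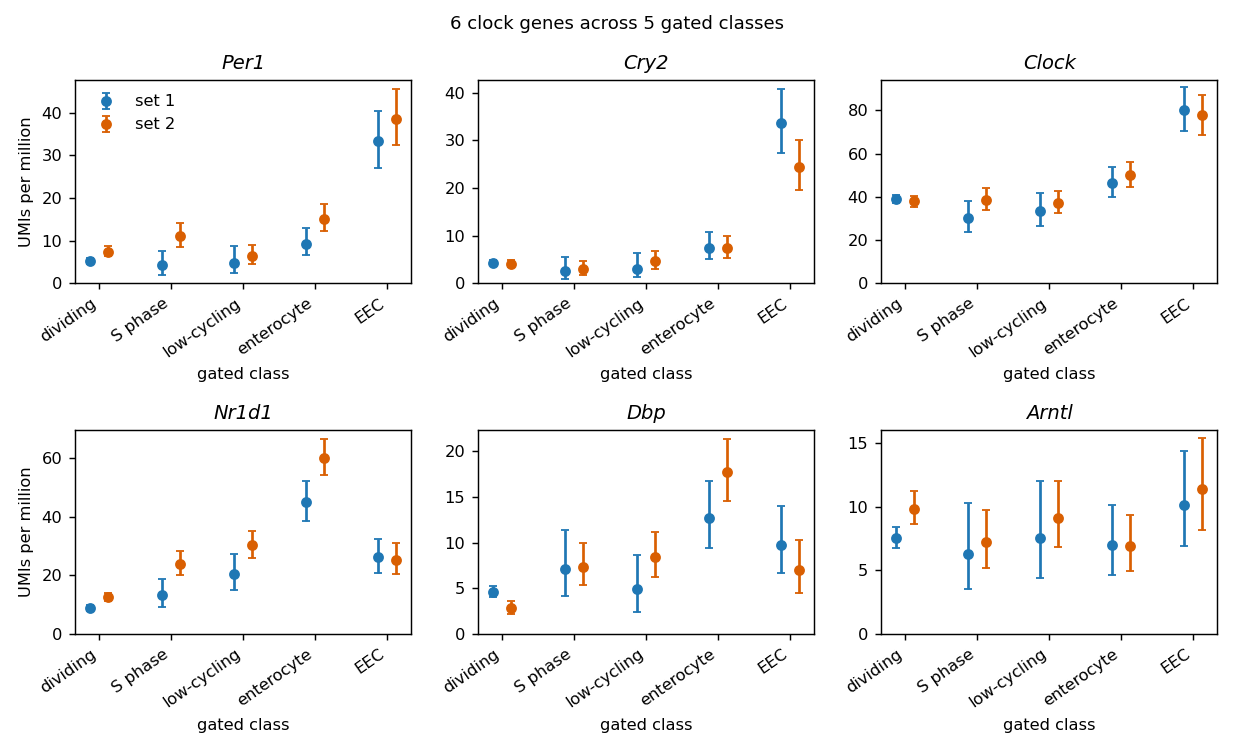
Levels of 6 clock genes in CPM (linear axes from 0) in 5 gated classes (EEC, enteroendocrine-like), with points for set 1 and set 2 and bars for 95% Poisson intervals that cover counting error only. Per1, Cry2 and Clock are highest in enteroendocrine-like cells, Nr1d1 and Dbp in enterocyte-like cells, and the Arntl intervals of these 2 classes and the low-cycling class overlap in each set.

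Crypt-like cells differed in Nr1d1 by their cycling genes. This comparison was added after the data were seen. Nr1d1 had 20.3 CPM (14.8 to 27.1) and 30.2 CPM (25.8 to 35.1) in low-cycling cells against 8.71 CPM (7.86 to 9.62) and 12.3 CPM (10.97 to 13.9) in dividing cells, log2 ratios of 1.13 and 1.23. It was the only 1 of 7 tested members called, where 0.24% of 8744 genes were called higher and 2.86% lower. S-phase cells lay between, at 13.3 and 23.8 CPM. The call is close to its limit and was lost under several alternatives, for example without the 3 cells highest in Nr1d1 of each set (mean log2 0.98). Per1 had log2 ratios of -0.08 and -0.18 and Arntl of -0.01 and -0.10 in the same comparison, while Dbp was uneven at 0.07 and 1.31. Dividing cells held the tuft markers at 6.15 and 0.212 CPM, below the low-cycling values given above, and their part in the result was not tested.

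A single cell carried 56 UMIs of Nr1d1, where the next highest cell of set 2 had 10 and the highest of set 1 had 7. It was a revival-like cell of set 2 with 72691 UMIs. Revival-like cells, marked by Anxa1, S100a6 and related genes of regenerating epithelium, had 69.4 CPM of Nr1d1 in set 2 with this cell and 30.1 CPM without it (28 cells, 39 UMIs), against 10.45 CPM on 5 UMIs in set 1. The other 9 genes had at most 14 UMIs in any cell.

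Several members share their locus with other genes in the GENCODE vM21 annotation of GRCm38. Whether the counting used strand is not given in the sources used here, and whether overlapping genes share reads was not tested. Nr1d1 overlaps Thra on the opposite strand over 1075 bases. Thra had 41.8 and 45.9 CPM in enterocyte-like and 50.5 and 51.4 CPM in crypt-like cells. Dbp overlaps Sphk2 over 737 bases on the opposite strand. Sphk2 was also higher in enterocyte-like cells, at 31.5 and 42.0 CPM against 13.8 and 17.7 CPM in crypt-like cells. Per3 lies in Camta1 on the same strand; Camta1 had 23.8 and 29.96 CPM in enteroendocrine-like and 18.4 and 16.0 CPM in crypt-like cells. Cry2 overlaps D930015M05Rik and Arntl overlaps Gm45355, both on the opposite strand, and Clock holds Ube2n-ps1 and Gm43658 on its own strand.

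Across all kept cells correlations between the 10 genes were low. Over the 45 pairs, Pearson r of log-scaled counts ran from -0.0215 to 0.155 in the 2300 cells of set 1 and from -0.0296 to 0.214 in the 1766 cells of set 2, with medians of 0.0509 and 0.0436. Cells of a set share a library and differ in depth, so r is a description. Bub1b and Nusap1, a pair of mitosis genes, gave 0.389 and 0.394 in the same cells.

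The highest pair in set 1 was Nr1d1 with Nr1d2 (0.155, and 0.118 in set 2). In set 2 it was Per3 with Nr1d2 (0.214, and 0.0509 in set 1). Arntl with Clock, whose proteins pair, gave 0.0217 and 0.000207. Arntl with Nr1d1, activator and repressor of the loop, gave 0.0565 and -0.00631, so no inverse relation was visible at this depth. Within dividing cells the highest values were 0.0945 and 0.107, both for Nr1d1 with Nr1d2, and the gauge pair gave 0.182 and 0.130. In enteroendocrine-like cells Nr1d1 with Nr1d2 gave 0.269 and 0.0982, and in enterocyte-like cells 0.295 and 0.0488. The 176 enterocyte-like cells of set 2 had the highest median of the classes and sets examined, 0.103, with 7 of 45 pairs at 0.2 or more and Per1 with Dbp highest at 0.245. In the 123 such cells of set 1 the median was 0.000276 and 2 pairs reached 0.2. The counts are sparse, and none of these weak values is offered as a relation.

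**Figure D4:**
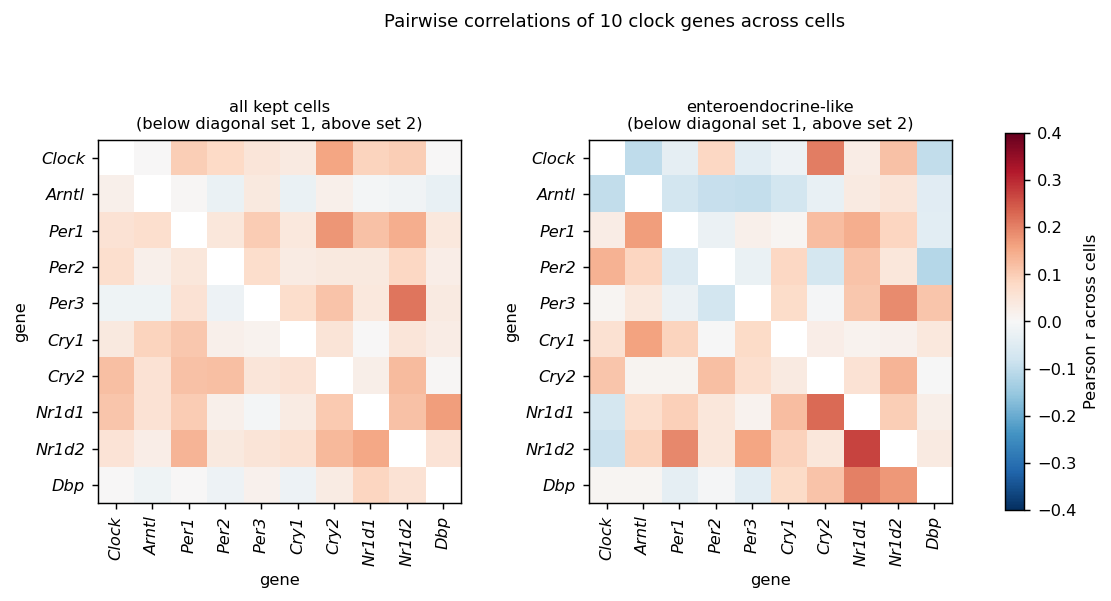
Pearson r across cells for the 45 pairs of clock genes in all kept cells (left) and in enteroendocrine-like cells (right), with set 1 below and set 2 above the diagonal and a colour scale from -0.4 to 0.4. In all kept cells no pair exceeds 0.214; in enteroendocrine-like cells the darkest square is Nr1d1 with Nr1d2 in set 1 (0.269).

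Genes with the most similar profile were sought over 10 points, the 5 large classes in each of 2 sets, among 5057 genes at 20 CPM or more. Clock was the only member at that level over all cells. Its nearest was Jak1, a cytokine receptor kinase (r = 0.998). Added after the data were seen, Per1 was nearest to Nbeal1 (0.991) and to the chromatin reader Brd2 (0.98), and Nr1d1 to Neurl3 (0.982) and Ifrd1 (0.974). The points share libraries and gates, and the values are descriptions of these profiles only.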

How the data were processed

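The deposited counts are UMI counts per gene and barcode, made by the authors with Cell Ranger 3.1.0, bcl2fastq 2.20.0 and STAR 2.7.3a, per the submitters' processing notes; the genome build and the strand setting are not given in the sources used here. The members and lists were chosen with earlier results of these data known. All 10 members were named; from each pathway list up to 5 genes with the largest ratio at 5 CPM or more were named, and further called genes after their values were seen. Counts were summed per class and set and scaled to CPM; ratios used a pseudocount of 1 CPM. With 1 matrix, called means past 1.5-fold between sets, or 2-fold the same way in both sets between classes. Gates needed at least 3 markers above a number of UMIs per 10000 set after marker values, and without clock genes, were seen; cells meeting several gates (185, of which 169 met the enteroendocrine gate) and ungated cells were left out of classes. Scrublet (scanpy 1.11.5) marked 14 of 4066 cells (0.344%) as doublets, too few to rely on, so all were kept, and an alternative left out the 203 highest scores. The fold rule was run on simulated counts as a check of the code only, which bears on no result here. edgeR 4.0.16 gave TMM factors, and numpy 2.4.6 and scipy 1.17.1 the rest. Both samples hold the same barcodes, so no barcode was assigned to the control or the melatonin group. A further gene that the rule on similar profiles names is not reported here.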

Additional observations from a re-analysis of the deposited data

Results flagged for a closer look

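Barcodes above the mitochondrial limit of 20%, which entered only the alternative with no such limit, also held clock transcripts. Summed over the 10 genes they had 213.4 UMIs per 1000000 non-mitochondrial UMIs in set 1 (206 to 221, 6110 barcodes) and 254.9 in set 2 (246 to 264, 3671 barcodes), above the limit that a count of 0 allows. Kept cells had 135 and 153 on that scale. Per2 stood at 16.6 and 17.9 in these barcodes against 6.78 and 6.09 in kept cells, Nr1d1 at 22.8 and 39.6 against 14.7 and 27.6, and Dbp at 8.30 and 7.22 against 6.13 and 6.96.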

How the results depend on the processing

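No called value of a clock gene changed direction in the alternatives run. Between sets, 2 genes passed with a pseudocount of 0.1 CPM and 2 with no mitochondrial limit (Per1 joined Nr1d1), and 0 with a pseudocount of 10 CPM. In enteroendocrine-like cells 2 of the 6 stayed called with a pseudocount of 10 CPM, 3 with TMM scaling, 3 in cells of at least 20000 UMIs and 3 at 20 CPM or more, which tests fewer genes. In enterocyte-like cells 1 of the 2 stayed with a pseudocount of 10 CPM, 1 without the 3 highest cells and 1 at 20 CPM or more, and 0 with a 10% mitochondrial limit; the depth window held only 4 and 7 of them. In low-cycling cells 0 were called with a pseudocount of 10 CPM, 0 with a 10% limit and 0 with no limit on mitochondrial UMIs, 0 with the mean of each cell's CPM, 0 without the 3 highest cells and 0 at 20 CPM or more, where Nr1d1 was not tested. Leaving out cells with no UMI of either gene turned the highest r to -0.0677 and -0.00974 and the lowest to -0.386 and -0.474, since it keeps cells with only 1 of the genes; with no mitochondrial limit the highest r of set 2 was 0.0948. The share of cells with a UMI of Per1 grew with depth: at 5000 UMIs 13.2% and 18.7% of enteroendocrine-like and 2.63% and 4.23% of crypt-like cells, at 10000 UMIs 23.8% and 30.6%, and 5.06% and 7.90%, and unthinned 32.7% and 38.7%, and 16.0% and 22.2%. Over all alternatives, 66 of 87 values of called enteroendocrine-like genes kept their call, and the 21 lost were values of Clock, Per2, Nr1d2 and Per3. The cause of these changes was not tested. Apart from TMM scaling, the share of all genes called under an alternative is not given here. No paired analysis was possible because the labels give 1 sample per group.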
